A study of Mus musculus with 8 samples.

Results

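Angiogenin (Ang), Rpgrip1, Mettl17 and Supt16 are 4 genes of 1 stretch of mouse chromosome 14, among 13559 gene symbols measured in belly skin. They were chosen by their measured values: earlier results of the same transgenic and wildtype animals showed large differences for probe sets of this stretch. Their differences between the groups are therefore given as a description, with no test. The genes were read by 12 probe sets, each annotated to 1 of the 4 symbols alone: 3 for Ang, 4 for Rpgrip1, 3 for Mettl17 and 2 for Supt16. Of these, 9 had a mean log2 level above the filter for low values, and the other 3, all of Rpgrip1, did not.

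The transgenic group held 4 mice, females 7 and 84 and males 11 and 17, which carried a transgene for hurpin, a human protein that inhibits the lysosomal protease cathepsin L. The wildtype group held 3 mice, males 26 and 28 and female 29. All were 8 months old, and RNA of wildtype 29 was put on 2 arrays, which made 8 arrays in all. The promoter of the transgene, the founder line and the strain are not given in the labels, and neither is how the animals were related.

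Angiogenin is a small secreted enzyme of the ribonuclease A family. It promotes the growth of blood vessels, and inside stressed cells it cleaves transfer RNA. Many other genes of that family lie beside it, and Ang and Rnase4, which encodes another secreted ribonuclease, are known to be transcribed from common start sites. Rpgrip1 encodes a scaffold of the connecting cilium of photoreceptors, where it binds the protein RPGR. Mettl17 encodes a methyltransferase-like protein of mitochondria that takes part in assembling the small subunit of the mitochondrial ribosome. Supt16 encodes the large subunit of FACT, a histone chaperone that opens nucleosomes ahead of RNA polymerase.

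In RefSeq order on GRCm38.p6, 35 annotated genes lie between Ang and Mettl17, 13 between Mettl17 and Rpgrip1, and 1 between Rpgrip1 and Supt16. Rpgrip1 is read from the plus strand and Supt16 from the minus strand, and the annotated genes overlap at their ends, so that they converge. The windows around the starts of Ang, Rnase4 and Rpgrip1 are shown because Ang and Rnase4 have an identical one, and because Ang and Rpgrip1 hold the largest differences. Each is a RefSeq window of 300 bases on GRCm38.p6, plus strand, 5′ to 3′, that reaches a little past the start. Capitals mark matches on either strand to 1 of 4 promoter motifs. The motif spelled TATAAA was searched as the TATA box, which places polymerase at some starts. The motif spelled GGGCGG was searched as the GC box, which binds SP1. The CCAAT box was searched by the letters of its name, and the motif spelled CACGTG as the E-box, which binds helix-loop-helix factors. The common window of Ang and Rnase4 is chr14:51090827-51091126, the second window of Rnase4 is chr14:51095750-51096049, and that of Rpgrip1 is chr14:52110653-52110952.
Ang and Rnase4, common start: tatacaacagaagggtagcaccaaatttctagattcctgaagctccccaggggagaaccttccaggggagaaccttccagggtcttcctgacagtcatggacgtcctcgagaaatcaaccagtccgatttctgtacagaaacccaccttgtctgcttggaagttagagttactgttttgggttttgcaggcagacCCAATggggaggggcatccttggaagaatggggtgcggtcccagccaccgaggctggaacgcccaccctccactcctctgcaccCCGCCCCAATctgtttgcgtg
Rnase4, second start: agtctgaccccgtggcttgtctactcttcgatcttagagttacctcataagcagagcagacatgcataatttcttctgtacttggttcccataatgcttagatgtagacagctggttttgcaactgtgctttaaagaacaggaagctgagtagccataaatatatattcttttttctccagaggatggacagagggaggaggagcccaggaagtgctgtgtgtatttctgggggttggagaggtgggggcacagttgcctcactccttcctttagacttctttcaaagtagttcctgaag
Rpgrip1: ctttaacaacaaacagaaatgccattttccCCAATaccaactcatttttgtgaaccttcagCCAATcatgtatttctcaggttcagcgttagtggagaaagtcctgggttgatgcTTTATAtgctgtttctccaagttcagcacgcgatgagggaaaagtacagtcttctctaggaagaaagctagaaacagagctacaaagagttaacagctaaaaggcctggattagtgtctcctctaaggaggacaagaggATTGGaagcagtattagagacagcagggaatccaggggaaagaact

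The common window of Ang and Rnase4 held 2 CCAAT boxes and 1 GC box, of which a CCAAT box and the GC box have 1 base in common. The second window of Rnase4 held none of the 4 motifs. That of Rpgrip1 held 3 CCAAT boxes and 1 TATA box, which was on the opposite strand. Mettl17 had 1 CCAAT box, and Supt16 had 2 GC boxes and 1 E-box. Of 32817 windows of the same length, 37.4% held a CCAAT box, 35.6% a GC box, 13.6% a TATA box and 7.15% an E-box. A match describes the letters of the window and says nothing about a bound factor.

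The animals' skin carried the transcripts of its main cell types. Krt5 and Krt14, keratins of basal keratinocytes, and Col1a1 and Col3a1, collagens of dermal fibroblasts, lay between 13.56 and 15.51 on the log2 scale in every animal. Of 5 markers of photoreceptors, the cells in which Rpgrip1 is best known, 4 were below the level filter. Pde6b and Rcvrn lay between 4.71 and 5.31, near the floor of the scale at 4.45, while Gnat1 reached 6.44 and Crx 7.03. Sag, the 1 that passed, lay between 6.33 and 7.83 in transgenic and between 5.90 and 7.54 in wildtype animals. Gapdh, whose 3' and 5' ends are read by separate array controls, had an end ratio (3' over 5') of 13.8, 1.45, 4.68 and 17.2 in transgenic 7, 11, 17 and 84, which is a measure of how far the labelled RNA reaches. On the 4 wildtype arrays it lay between 0.927 and 1.41. Every transgenic array thus had a higher ratio than every wildtype array, so a model that holds both cannot cleanly separate group from RNA quality. Summed signal per array lay between 34785081 and 37857733. All levels below are log2 of signal plus 21.8.

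**Figure D1:**
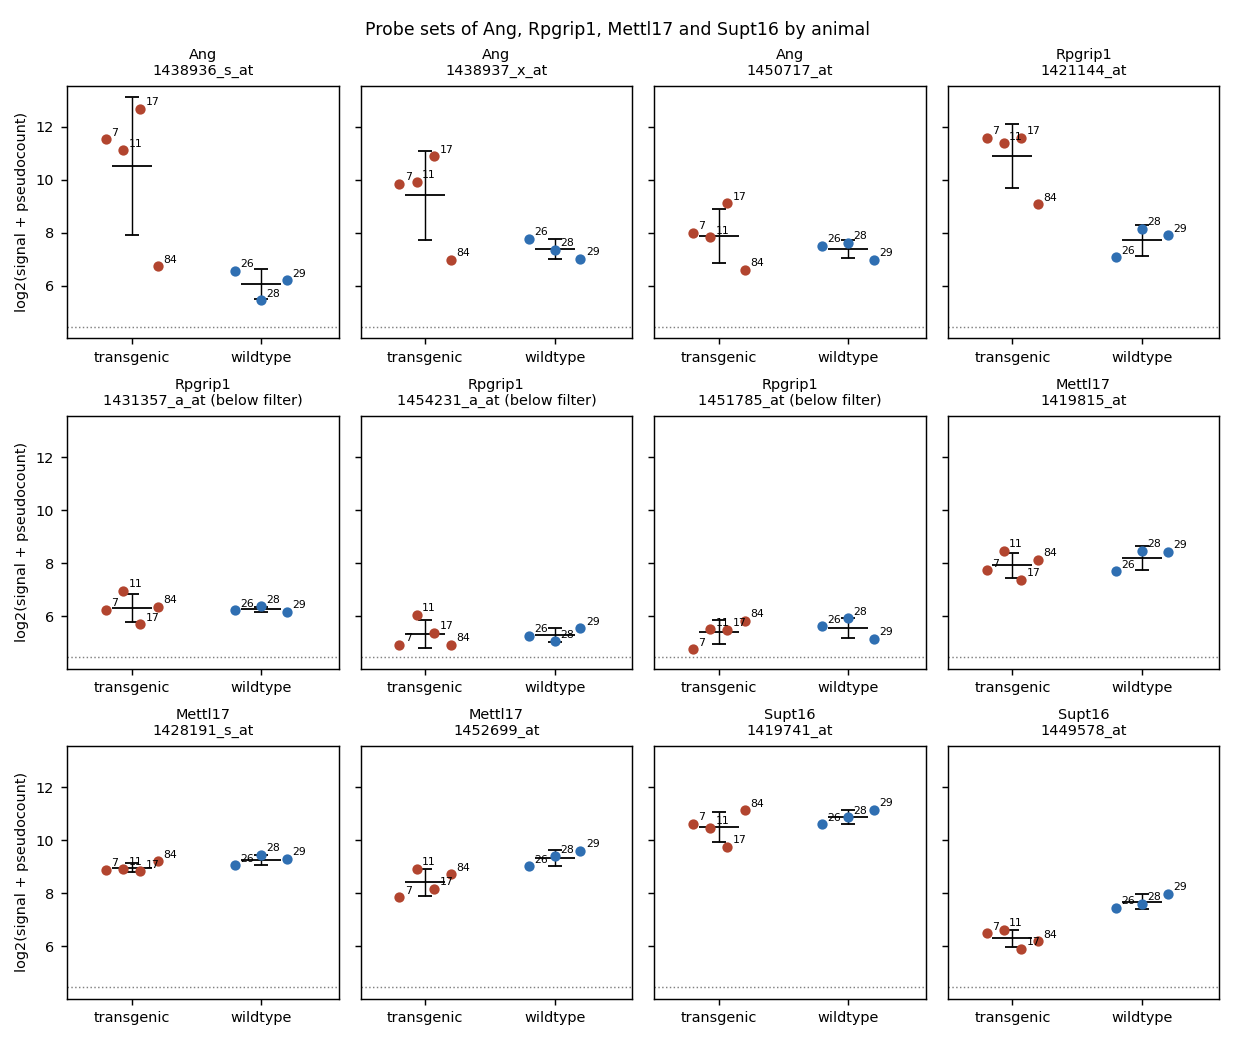
Levels of the 12 probe sets of Ang, Rpgrip1, Mettl17 and Supt16 in each animal, on the scale of log2 of signal plus a pseudocount (21.8). Points are animals with their numbers, the horizontal bar is the group mean with its SD (n = 4 transgenic and 3 wildtype), and the dotted line is the floor of the scale (4.45). Transgenic 7, 11 and 17 stand apart from wildtype in the first Ang and Rpgrip1 panels, with transgenic 84 between them and wildtype or among wildtype.

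Ang signal was high in 3 of the 4 transgenic animals. Its most shifted probe set, 1438936_s_at, read 2934.4, 2207.6, 6477.0 and 84.1 signal units in transgenic 7, 11, 17 and 84. In wildtype it read 73.4 in animal 26 and 21.9 in animal 28, and 22.1 and 102.7 on the arrays of animal 29. Transgenic 84 thus lay within the range of the wildtype arrays, and the other 3 transgenic animals lay far above it. On the log2 scale the means were 10.51 ± 2.61 in transgenic and 6.08 ± 0.57 in wildtype animals (SD, n = 4 and 3), a difference of 4.43. With the arrays of wildtype 29 averaged, the groups were apart by 0.15, which is less than those arrays, at 5.46 and 6.96, lay from each other. Over all tested probe sets the difference between the same arrays had an SD of 0.401.

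In the other probe sets of Ang the same animals lay above wildtype, at smaller size. Probe set 1438937_x_at read 891.6, 956.1, 1876.9 and 105.2 in transgenic 7, 11, 17 and 84, against 198.6, 142.1, 94.5 and 125.2 on the wildtype arrays. Its log2 means were 9.41 ± 1.68 in transgenic and 7.39 ± 0.38 in wildtype animals, and transgenic 84 lay below all 3 wildtype animals. Probe set 1450717_at read 236.3, 205.8, 528.9 and 75.1 in transgenic 7, 11, 17 and 84, against 159.0, 176.1, 121.4 and 91.7 on the wildtype arrays. Its difference was 0.51, with the groups overlapping. On the log2 scale transgenic 7 and 11, at 8.01 and 7.83, lay little above wildtype 28 at 7.63. In all 3 probe sets transgenic 17 was the highest animal. Transgenic 84 was the lowest animal in 1438937_x_at and 1450717_at. Without transgenic 84 the differences were 5.70, 2.83 and 0.94, in the order in which the probe sets are given here. Each of the 3 then separated the groups, which leaving out the lowest transgenic animal favours. The share of all tested probe sets that separate without that animal was not computed. Without transgenic 17 the differences were 3.72, 1.53 and 0.11, so that most of the difference at 1450717_at rested on that animal. Some markers of other cell types also lay apart between the groups. The mean of 5 adipocyte markers lay between 12.08 and 12.74 in transgenic animals and between 11.42 and 11.89 in wildtype animals. Of the 5, Lep had a difference of 2.52 and Fabp4 one of 0.38 without overlap, while Adipoq (0.49), Retn (0.57) and Cidec (0.08) overlapped between the groups. Alb, the 1 of 4 hepatocyte markers that passed the filter, lay between 7.01 and 8.05 in transgenic animals and between 5.98 and 6.91 in wildtype animals. Below the filter, Apoa1 had a difference of 0.99 without overlap, while Ttr (-0.13) and Cyp7a1 (-0.34) overlapped between the groups. The part of these markers in the Ang values was not tested.

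On arrays of this make the endings of a probe set's name are informative. The ending _s_at marks probes that match several transcripts and _x_at probes that partly match other sequences, while 1450717_at, with the smallest difference, carries neither mark. The signal of the first and second could therefore include related transcripts, which was not tested. Probe sets of the paralogues Ang2, Ang3 and Ang4 were below the level filter. Ang2 lay between 4.68 and 5.82 in transgenic and between 4.73 and 6.06 in wildtype animals. Of the 2 probe sets of Ang4, 1 lay between 4.85 and 5.97 in transgenic and 4.71 and 6.81 in wildtype animals, and the other between 4.88 and 6.22 in transgenic and 4.63 and 5.14 in wildtype animals. Ang3 lay between 4.76 and 5.29 in transgenic and between 4.69 and 5.39 in wildtype animals.

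Rnase4, which has its first start in common with Ang, did not follow it. It measured 14.03, 13.93, 14.30 and 13.95 in transgenic 7, 11, 17 and 84, against 14.45, 14.03 and 13.53 in wildtype 26, 28 and 29. The groups overlapped, and the difference was 0.05 (limma adjusted p = 0.947). The 4 other measured ribonuclease genes that lie between Ang and Supt16 overlapped between groups as well. Rnase1, the pancreatic-type ribonuclease, had a difference of 0.21 and Rnase6, which acts against bacteria, one of 0.22. Rnase2a and Rnase2b, of the eosinophil-associated group, had differences of 0.15 and 0.57. Among all members of the family outside Ang, with the inhibitor Rnh1 that binds angiogenin, 8 of 11 genes on the array were tested and limma called 0 (adjusted p of at least 0.372, and 1 at an unadjusted p under 0.05). Their median difference was 0.18, where the median over all tested probe sets was 0.001. The groups overlapped in each of the 8. Rnh1 itself measured 11.96 ± 0.30 in transgenic and 12.16 ± 0.19 in wildtype animals (SD, n = 4 and 3).

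Rpgrip1 was high in the same 3 transgenic animals through 1 of its 4 probe sets. Probe set 1421144_at read 3031.2, 2645.8, 3030.9 and 518.9 signal units in transgenic 7, 11, 17 and 84. The wildtype arrays read 112.9 in animal 26, 262.3 in animal 28, and 310.8 and 151.6 in animal 29. Here transgenic 84 stood above every wildtype array but far below the other transgenic animals. The log2 means were 10.90 ± 1.22 in transgenic and 7.71 ± 0.56 in wildtype animals (SD, n = 4 and 3), a difference of 3.19, and the groups were apart by 0.93. The arrays of wildtype 29 differed by 0.94. Without transgenic 84 the difference was 3.80.

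The other probe sets of Rpgrip1 gave low signal on every array and no such pattern. Probe set 1431357_a_at read between 29.4 and 102.5 in transgenic animals and between 41.5 and 60.9 on the wildtype arrays. Probe set 1451785_at read between 5.1 and 35.2 in transgenic animals and between 3.1 and 38.3 on the wildtype arrays. Probe set 1454231_a_at read between 8.2 and 44.0 in transgenic animals and between 11.4 and 43.5 on the wildtype arrays. Their log2 differences were 0.05, -0.17 and 0.02. The large difference of Rpgrip1 thus rested on a single probe set, and which transcript of the locus it reads was not tested.

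The mean of Mettl17 was lower in transgenic animals at each of its 3 probe sets, without overlap at 1 of them. Probe set 1452699_at read 207.9, 460.0, 264.4 and 396.4 in transgenic 7, 11, 17 and 84, against 495.1, 652.9, 687.6 and 814.3 on the wildtype arrays. Every transgenic animal was below every wildtype array. The log2 means were 8.41 ± 0.49 in transgenic and 9.33 ± 0.29 in wildtype animals (SD, n = 4 and 3), a difference of -0.93, with 0.10 between the nearest animals of the groups. Probe set 1428191_s_at, with 8.96 ± 0.16 in transgenic and 9.26 ± 0.19 in wildtype animals, and 1419815_at, with 7.92 ± 0.47 in transgenic and 8.20 ± 0.44 in wildtype animals, overlapped between groups. With the end ratio of Gapdh in the model, the differences of the 3 probe sets, in the same order, were -0.56, -0.42 and -0.02.

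Supt16 was also lower in transgenic animals, at very unequal size in its 2 probe sets. Probe set 1449578_at read 68.1, 75.7, 38.2 and 51.2 in transgenic 7, 11, 17 and 84, against 152.2, 173.8, 179.3 and 293.6 on the wildtype arrays. The groups were apart by 0.84, more than the 0.65 between the arrays of wildtype 29, and the log2 means were 6.30 ± 0.31 in transgenic and 7.68 ± 0.27 in wildtype animals, a difference of -1.38. Transgenic 84 lay within the range of the other transgenic animals here. Probe set 1419741_at, annotated to the same sequence record, read 1555.4, 1384.0, 838.1 and 2225.1 in transgenic 7, 11, 17 and 84, against 1530.0, 1849.3, 2370.4 and 2149.6 on the wildtype arrays. There the groups overlapped, transgenic 84 stood among the highest and the difference was -0.38. It was -0.14 without transgenic 17, and -0.84 with the end ratio of Gapdh in the model, where 1449578_at gave -1.25. In bulk skin, fewer cells of a type and less RNA per cell cannot be told apart for any of these genes.

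Of the 9 member probe sets that passed the filter, 2 lay higher in transgenic animals without overlap and 2 lower without overlap. Among these, Ang 1438936_s_at had a wildtype mean of 6.08 and Supt16 1449578_at a transgenic mean of 6.30. Both means are under the filter level of 6.45, so these probe sets passed through the group where they were higher. Over all 27022 tested probe sets, 4.58% lay higher and 6.71% lower without overlap. The limma adjusted p was under 0.05 for 0.0148% of tested probe sets, which are 4, and none of the 4 belongs to these genes. Because the genes were chosen from this comparison, nothing is read from their counts beside those shares.

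Within each sex the directions of the most shifted probe sets were alike. These probe sets were picked from the same animals, so this is no separate support. The difference of Ang 1438936_s_at was 2.92 between females, 7 and 84 against 29, and 5.88 between males, 11 and 17 against 26 and 28. That of Rpgrip1 1421144_at was 2.42 between females and 3.87 between males. Mettl17 1452699_at gave -1.31 and -0.67 and Supt16 1449578_at -1.64 and -1.27, in females and males. The only wildtype female was animal 29. At Ang 1438936_s_at transgenic 84 (6.73) lay near it (6.21) and far below transgenic 7 (11.53). Sex itself, which played no part in choosing the genes, was tested with group in the model. limma called 0 of the 9 member probe sets for female minus male (adjusted p of at least 0.386), where it called 0.226% of all tested probe sets. At an unadjusted p under 0.05 there was 1, Supt16 1419741_at, with 0.63 higher in females (SE 0.22, limma adjusted p = 0.386). The 3 probe sets of Ang had lower estimates in females, with differences of -1.58, -1.42 and -0.93 (SE 1.12, 0.65 and 0.42, limma adjusted p = 0.626, 0.476 and 0.475). At 1438936_s_at this came from the transgenic animals, with means of 9.13 in females and 11.89 in males. In wildtype it was 6.21 in the female and 6.01 in males.

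**Figure D2:**
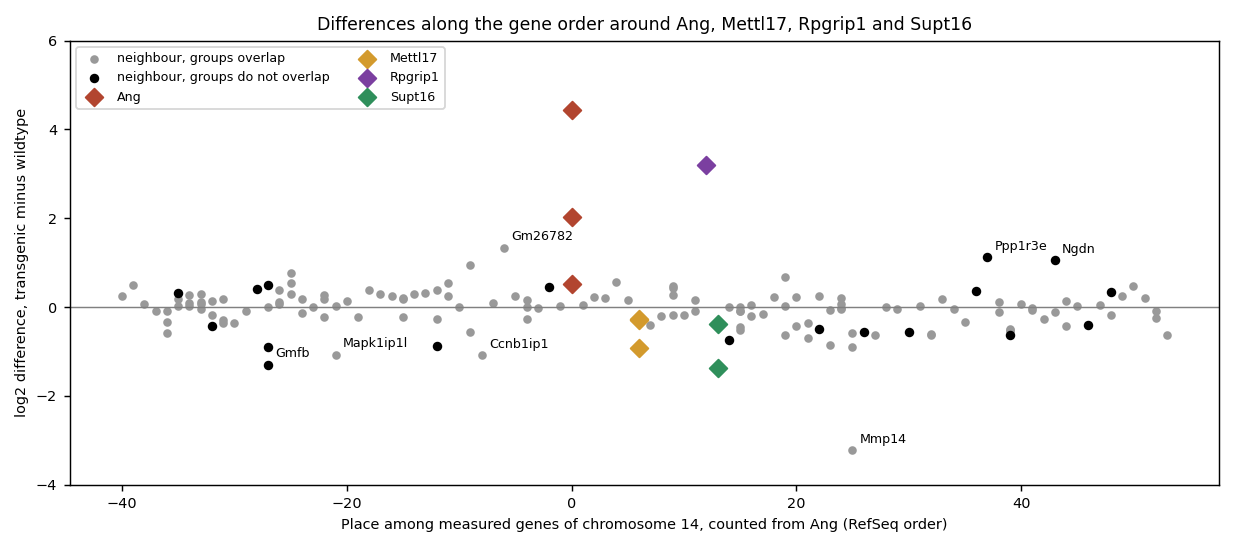
Log2 difference, transgenic minus wildtype, of each tested probe set (vertical axis) against the place of its gene among the measured genes of chromosome 14, counted from Ang (horizontal axis). Diamonds are the 4 genes, dark points are neighbours whose groups do not overlap and grey points those whose groups do. Ang and Rpgrip1 reach 4.43 and 3.19, while the other measured genes between Ang and Supt16 lie from -0.41 to 0.57.

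The genes around the 4 were then followed in RefSeq order, since they were chosen by place alone. Between Ang and Supt16, 10 other genes with 14 probe sets were measured. None of the 14 separated the groups, and their differences ran from -0.41 for Slc39a2, a zinc transporter, to 0.57 for Rnase2b. Hnrnpc, the gene just before Rpgrip1, which encodes a protein that packages nascent RNA, had differences of -0.09 and 0.16. Ndrg2, next in order after Slc39a2, had -0.21. The large differences of Ang and Rpgrip1 were thus not found in these 10 genes, and most genes that lie between them were not measured. Mettl17, which also lies there, is described above.

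With 40 measured genes on each side added, 90 neighbours with 153 probe sets were tested. limma called 0 of them (smallest adjusted p = 0.229). An unadjusted p under 0.05 was found in 20 of the 153, or 13.1%, where 11.7% of all tested probe sets had one. Groups did not overlap in 8 higher and 10 lower probe sets, 11.8% of the neighbours' 153, where it was 11.3% of all tested. The median difference was 0.01. A difference of 1 or more with no overlap was found in 3 of the 153, where 2.21% of all tested probe sets had one.

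Those 3 probe sets belong to Ngdn, Ppp1r3e and Gmfb. Ngdn, a nucleolar protein, measured 11.53, 11.27, 11.59 and 10.73 at 1438318_x_at in transgenic 7, 11, 17 and 84, against 10.14, 10.21 and 10.31 in wildtype 26, 28 and 29 (difference 1.06, limma adjusted p = 0.229). Its other probe set gave -0.11. Ppp1r3e, a subunit that directs protein phosphatase to glycogen, measured 8.13, 7.87, 8.76 and 7.09 in transgenic 7, 11, 17 and 84, against 7.07, 6.49 and 6.96 in wildtype 26, 28 and 29 (difference 1.12, limma adjusted p = 0.342). In both genes transgenic 84 was the transgenic animal nearest to wildtype. Gmfb, a regulator of branched actin, had differences of -1.30 and -0.91 at 2 probe sets but 0.50 and 0.01 at the other tested ones. The first, 1417069_a_at, measured 6.94, 8.08, 7.63 and 5.69 in transgenic 7, 11, 17 and 84, against 8.51, 8.26 and 8.38 in wildtype 26, 28 and 29 (limma adjusted p = 0.386).

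The largest difference among the neighbours was in Mmp14, a membrane-bound matrix protease, which falls outside the naming rule and is given because of its size, seen afterwards. Probe set 1416572_at measured 5.25, 8.52, 5.32 and 4.71 in transgenic 7, 11, 17 and 84, against 9.87, 9.20 and 8.47 in wildtype 26, 28 and 29 (difference -3.23, limma adjusted p = 0.301). Transgenic 11, where the end ratio of Gapdh was 1.45, lay within the wildtype range. Without that animal the limma adjusted p of Mmp14 was 0.0192 and the difference -4.08. The count called over the whole array then rose from 4 to 269, so such a call is not particular to Mmp14. The part of RNA quality in it was not tested. The other probe sets of Mmp14 gave -0.89 and -0.59. Gm26782, also named for its size seen afterwards, had a difference of 1.34 with the groups overlapping (limma adjusted p = 0.363). For Ang and Rpgrip1, transgenic 7 and 84, whose ratios were the highest, stood at 11.53 and 6.73 in Ang 1438936_s_at and at 11.58 and 9.08 in Rpgrip1 1421144_at. Transgenic 11 and 17, with ratios of 1.45 and 4.68, stood at 11.12 and 12.67 in that of Ang and at 11.38 and 11.58 in that of Rpgrip1. With the ratio in the model, the differences of these probe sets were 6.45 and 4.21. The ratio was higher in every transgenic animal than on any wildtype array, so these values do not separate group from RNA quality.

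**Figure D3:**
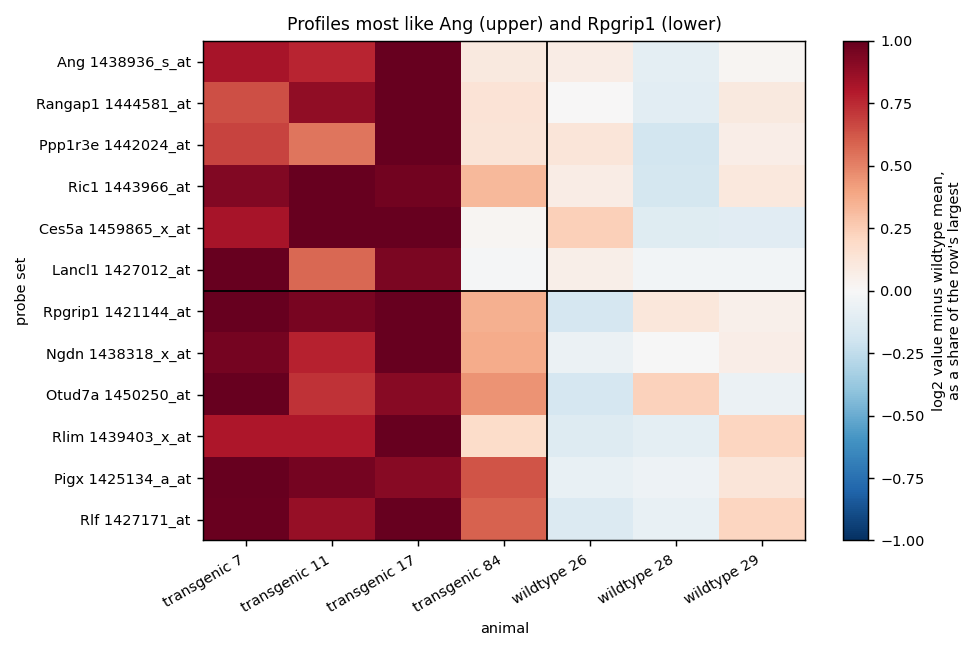
Levels of the most shifted probe sets of Ang and Rpgrip1 and of the 5 probe sets most like each, in the 7 animals (columns). Colour is the log2 level minus the wildtype mean, as a share of the largest absolute value in the row. Transgenic 7, 11 and 17 are red in every row, and transgenic 84 is paler than they are in every row.

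Likeness was measured as Pearson's r with the most shifted probe set of each gene over the 7 animals, across 23270 tested probe sets with 1 symbol for Ang and 23272 for Rpgrip1. It describes these animals, whose arrays it has in common with the differences above. Closest to Ang 1438936_s_at were Rangap1 (r = 0.977), the activator of the Ran GTPase, Ppp1r3e (0.974), Ric1 (0.972), which acts in Golgi traffic, Ces5a (0.971), a carboxylesterase, and Lancl1 (0.968). Their differences were 0.30, 1.12, 0.23, 1.81 and 0.75, so that likeness of profile went with small as well as large shifts. Other tested probe sets of these genes did not all go the same way. Those of Rangap1 gave -0.67 and -0.05 and that of Ric1 gave -0.30, with the groups overlapping. Lancl1 1427011_a_at lay lower in transgenic animals without overlap, at 11.36 ± 0.17 in transgenic and 11.58 ± 0.07 in wildtype animals (SD, n = 4 and 3). Closest to Rpgrip1 1421144_at were Ngdn (r = 0.984), Otud7a (0.972), a deubiquitinase, Rlim (0.960), a ubiquitin ligase, Pigx (0.959), which acts in making membrane anchors, and Rlf (0.958), a zinc finger protein. Their differences were 1.06, 1.16, 0.23, 0.40 and 1.01. Other probe sets ran from 0.03 to 0.40 for Otud7a, from -0.14 to 0.32 for Rlim and from -0.28 to 0.79 for Rlf, and gave 0.29 for Pigx. Of the 10, Ppp1r3e and Ngdn lie on chromosome 14, which holds 3.48% of the placed probe sets searched. The 10 were ranked by likeness to profiles chosen in these same animals, so nothing is read from that count.

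The profiles of Ang and Rpgrip1 were also alike. Between their most shifted probe sets r was 0.940 over the 7 animals, and each ranked 15 in the other's list. The other probe sets of Ang had r of 0.883 and 0.644 with Rpgrip1 1421144_at. Those of Mettl17 and Supt16 ran the other way, with r from -0.918 to -0.539 against Ang and from -0.782 to -0.319 against Rpgrip1. The genes were chosen by their differences in these same animals, so the size and sign of r follow in part from that choice.

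Genes that act with the 4 were set beside them as lists, each gene by its most abundant probe set. Over all tested probe sets, 11.7% had an unadjusted p under 0.05 and 11.3% did not overlap between groups. With the most abundant probe set of each gene alone, limma gave 1230 of 13559 at an unadjusted p under 0.05. The share without overlap was not computed for that choice of probe sets. Of 24 tested angiogenesis ligands and receptors limma called 0 (smallest adjusted p = 0.315, and 2 at an unadjusted p under 0.05), and the median difference was 0.17. Without overlap, 0 lay higher and 2 lower, 8.33% of the list. Plxnb2, a receptor of angiogenin, measured 9.47, 10.72, 10.07 and 9.39 in transgenic 7, 11, 17 and 84, against 10.82, 11.03 and 11.12 in wildtype 26, 28 and 29. All 4 transgenic animals were below wildtype (difference -1.08, limma adjusted p = 0.315). Transgenic 7 and 84, with the highest Gapdh ratios, were lowest and transgenic 11, with the lowest, was highest among them, and the part of RNA quality was not tested. Vegfa, Vegfb and Vegfc, growth factors of blood and lymph vessels, had differences of 0.32, -0.49 and 0.52 with the groups overlapping. The 6 endothelial markers had means between 8.57 and 8.97 in transgenic animals and between 8.60 and 9.34 in wildtype animals.

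The partners of Rpgrip1 at the base of the cilium gave no call. Of 21 tested genes of the transition zone limma called 0 (smallest adjusted p = 0.386, and 3 at an unadjusted p under 0.05), with a median difference of 0.01. Without overlap, 3 lay higher and 1 lower, 19.0% of the list, where 11.3% of all tested probe sets did not overlap. Rpgr, the partner that gave the gene its name, measured 8.07 ± 0.26 in transgenic and 7.98 ± 0.32 in wildtype animals (SD, n = 4 and 3). Nphp4 and Invs, scaffolds of the same zone, and Nek8, a kinase there, had differences of 0.36, 0.08 and -0.37.

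For Mettl17, 36 genes of the small mitochondrial ribosomal subunit and its assembly were tested. limma called 0 (smallest adjusted p = 0.307, and 8 at an unadjusted p under 0.05), 4 lay higher and 3 lower without overlap, and the median was -0.01. These are 22.2% of the list at that unadjusted p and 19.4% without overlap, in both directions. Over all tested probe sets the shares were 11.7% and 11.3%. Mettl15, an RNA methyltransferase of the same subunit, measured 9.15 ± 0.28 in transgenic and 8.45 ± 0.14 in wildtype animals, a difference of 0.69. Nsun4 and Tfb1m, methyltransferases of its RNA, and the assembly factor Rbfa had differences of 0.23, -0.03 and -0.11. For Supt16, 16 histone chaperones and elongation factors were tested. limma called 0 (smallest adjusted p = 0.478, and 0 at an unadjusted p under 0.05), and the median was 0.03. Without overlap, 0 lay higher and 1 lower, 6.25% of the list. The elongation factors Supt6 and Supt5 had differences of -0.35 and -0.23, and Paf1 and Ctr9, subunits of the PAF complex, had 0.14 and 0.00.

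**Figure D4:**
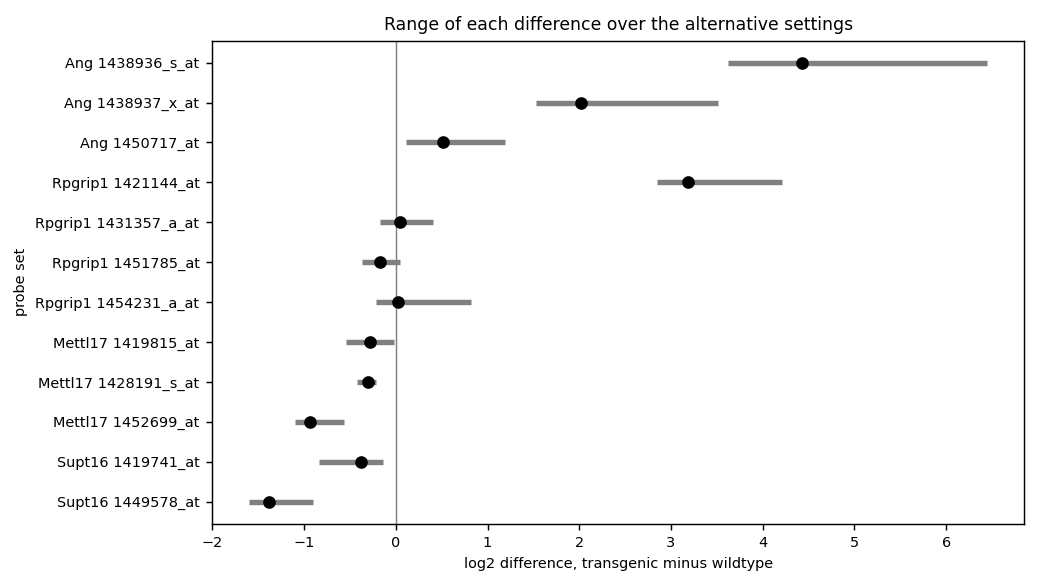
Log2 difference, transgenic minus wildtype, of the 12 probe sets (points) with its range over 15 alternative settings (bars). Those of Ang stay above 0 and those of Mettl17 and Supt16 below 0, and the 3 low probe sets of Rpgrip1 have bars across 0.

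The directions of the 9 tested member probe sets were the same in all 15 alternative settings. The settings reuse the animals in which the genes were chosen, so this is no separate support. Some differences became small: Mettl17 1419815_at gave -0.02 with the end ratio in the model. Without transgenic 17, Ang 1450717_at gave 0.11 and Supt16 1419741_at gave -0.14. The difference of Ang 1438936_s_at ran from 3.62, with a pseudocount 4 times as large, to 6.45, with the end ratio in the model. That of Rpgrip1 1421144_at ran from 2.85 to 4.21 under the same settings. Supt16 1449578_at ran from -1.60, with a smaller pseudocount, to -0.90, with 4 times the pseudocount. With only the second array of wildtype 29, which read 102.7 at Ang 1438936_s_at, transgenic 84 with 84.1 was below it and the groups overlapped there.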

How the data were processed

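RNA of belly skin was labelled by the one-cycle protocol and hybridised to arrays, per the labels. The authors deposited linear intensity values, summarised per probe set with MAS5, per the submitters' processing notes, which give no version. The mean trimmed by 2% at each end was 500 on each array, so the authors scaled the arrays alike. The table held 45101 probe sets, 64 of them array controls. Of the rest, 34945 had 1 gene symbol, 932 several and 9160 none in the platform's annotation.

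Values were taken as log2 of signal plus 21.8, the 20th percentile of all values, and the arrays of wildtype 29 were averaged. Probe sets with a mean at or above 6.45, the 40th percentile, were tested (27022) by limma 3.58.1 in R 4.3.3 (trend, 2-sided, Benjamini-Hochberg over all tested, threshold 0.05), which was also tested on simulated data. Gene order and promoter windows came from RefSeq on GRCm38.p6. Named were every probe set of the members, the 5 most correlated with each of Ang and Rpgrip1, measured ribonuclease genes of the same chromosome, and neighbours called or with a log2 difference of 1 or more and no overlap. Other neighbours named for place were chosen afterwards. Of each gene list up to 4 genes are named, in the order written. The members, lists and alternatives were chosen with earlier results of these data known. Summaries were made in Python 3.11.15 and plots in matplotlib 3.10.9. Detection calls were not used here. The number of arrays limits the precision.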

Additional observations from a re-analysis of the deposited data

Results flagged for a closer look

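Among the transgenic animals, transgenic 84 stood far from the others at Rpgrip1 1421144_at. Its log2 level was 9.08, against 11.38 to 11.58 in the other 3, and the gap was 0.922 of the group's range, above the critical value of 0.829 for 4 samples. Of 12 such checks, 1 per member probe set, this was the one that passed, and chance passes about 1 in 20. At Rpgrip1 1454231_a_at the sexes went opposite ways: transgenic females lay below the wildtype female by -0.63 and transgenic males above the wildtype males by 0.55. The difference between the sexes was not tested, the wildtype female group is 1 animal, and all values of this probe set were below the level filter.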

How the results depend on the processing

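The count of probe sets called over the whole array was 4 and depended on the setting. It was 10 with a pseudocount 4 times as large, 2 with the filter at the 60th percentile, 11 with sex as a covariate, 9 with the second array of wildtype 29 alone, and 14 at an adjusted p under 0.1. It was 0 with the end ratio of Gapdh (3' over 5') in the model (limma gave 851 at an unadjusted p under 0.05) and 0 with 1 probe set per gene (1230). With an animal left out it ran from 0 to 269: leaving out transgenic 11 gave 269, transgenic 17 gave 12, transgenic 84 gave 11, wildtype 26 gave 2 and wildtype 28 gave 0 (1621 at an unadjusted p under 0.05). The cause was not tested. The number of neighbouring probe sets called was 0 in 19 of 20 alternatives and ran from 0 to 1 with an animal left out, the 1 being Mmp14 without transgenic 11. For female minus male, 0 member probe sets were called in all 18 alternatives. The number of member probe sets without overlap, 4 of 12, ran from 4 to 7 with an animal left out, and was 7 without transgenic 84, where both other probe sets of Ang and 1428191_s_at of Mettl17 also separated the groups. The share over all tested probe sets without that animal was not computed, so nothing is read from the 7. No paired analysis was possible because the groups have no animal numbers in common.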
